A study of Homo sapiens with 6 samples.

Results

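Nucleolar ribosome biogenesis factors are the proteins that transcribe, fold, modify and cut ribosomal RNA (rRNA) in the nucleolus and assemble it with ribosomal proteins. The 52 factors described here were taken by gene symbol, matched through the Ensembl identifiers of GENCODE release 29, from 29908 genes of an RNA sequencing table, by a rule that uses names and no measured value. The names were put together with earlier results of these data known, and CCDC86 was included because the study had picked it. That pick used these same libraries together with gene sets from a public tumour database. All 52 had a row, and 51 passed a mean of at least 0.5 FPKM (reads corrected for exon length and for library size) over the 6 libraries. The member below this limit was NOP2.

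The study examined DAGLA, the gene of diacylglycerol lipase alpha, in hepatocellular carcinoma. Both groups were cells of Hep3B, a long-established human liver cancer line, infected with lentivirus at a multiplicity of infection of 5 and selected with puromycin. Hep3B-Con cells (3 libraries) carried a control construct and Hep3B-KD cells (3 libraries) carried a short hairpin RNA against DAGLA. A single DAGLA hairpin was used and both lines are puromycin-selected, so an effect of that hairpin sequence or of the selected population cannot be told apart from an effect of DAGLA. The sources used here do not say whether the 3 libraries of a group came from separate cultures, so the tests measure the spread between these libraries, which may be technical.

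DAGLA was at 9.42, 9.40 and 9.02 FPKM in Hep3B-Con and 4.62, 4.46 and 4.78 FPKM in Hep3B-KD, a log2 fold change of -0.99 (SE 0.0442, adjusted p = 4.9e-06, limma). Library totals ranged from 15861039 to 17572714 reads. The hepatocyte marker ALB was abundant in both groups, with mean FPKM of 2042 and 3315, and of 15 hepatocyte and hepatoma markers 4 were lower and 10 higher in Hep3B-KD. Of 15 markers of blood, endothelial, stromal, muscle and neural cells, 9 had a row and 2 passed the filter, COL1A1 at 0.745 and 0.271 FPKM and PDGFRB at 2.67 and 2.11 FPKM, both lower in Hep3B-KD. The summed FPKM of the 9 ran from 3.67 to 4.01 in Hep3B-Con and from 2.84 to 2.88 in Hep3B-KD, with PTPRC, VWF, DCN and DES at 0 or within 0.038 FPKM of it in every library. The part of these marker differences in the results was not tested.

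As background, RNA polymerase I copies the rRNA genes into a long precursor inside the nucleolus. Small nucleolar ribonucleoproteins (snoRNPs) of the box C/D class methylate the precursor and those of the box H/ACA class convert uridines to pseudouridine, while the small-subunit processome and a series of large-subunit intermediates fold and cut it. The transcription factor MYC is known to raise the expression of many of these factors, and proliferating liver tumour cells keep large nucleoli.

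The members were mostly lower in Hep3B-KD. Of the 51 tested, 40 fell and 2 rose at an adjusted p under 0.05 (limma on log2(FPKM + 0.1), adjusted over 14147 genes), and 9 were not called. Over all genes tested, 24.0% were lower and 36.3% were higher by the same rule. The members' median log2 fold change was -0.38, against 0.11 for all genes tested, which leaves the members 0.49 below it on the log2 scale. That gap was smaller when genes were centred within bins of exon length, GC content and mean FPKM. The medians were then -0.34 for the members and -0.00 for all genes tested. All log2 fold changes below are given as fitted, without subtracting the median of all genes tested.

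The falls were mostly small. By fold change, 1 member passed 2-fold with an adjusted p under 0.05 in the lower direction, CCDC86, and 0 in the higher, where 2.95% and 5.88% of all genes did. The study's pick of CCDC86 required a fold change of at least 2 in these libraries, so its passing here was fixed beforehand. No other member passed. At a smaller limit, 10 members fell by at least 1.5-fold, and 9.46% of all genes tested were lower by as much. In 42 members all Hep3B-KD libraries were below all Hep3B-Con libraries, in 2 all were above, and in 7 the groups overlapped, against 26.4% of all genes below and 40.8% above. FPKM is relative to the reads of the library, so less RNA of a gene and more RNA of other genes cannot be told apart. Fewer cells of a kind and less RNA per cell cannot be told apart either.

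The members are abundant transcripts, with a median of 28.0 FPKM in Hep3B-Con and a range from 1.07 FPKM (PPAN) to 267.8 FPKM (NPM1), against a median of 4.65 FPKM for all genes tested. The median SE of a member's log2 fold change was 0.0373, and the largest, 0.24, belonged to PPAN, which had as few as 30 reads in a library.

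**Figure D1:**
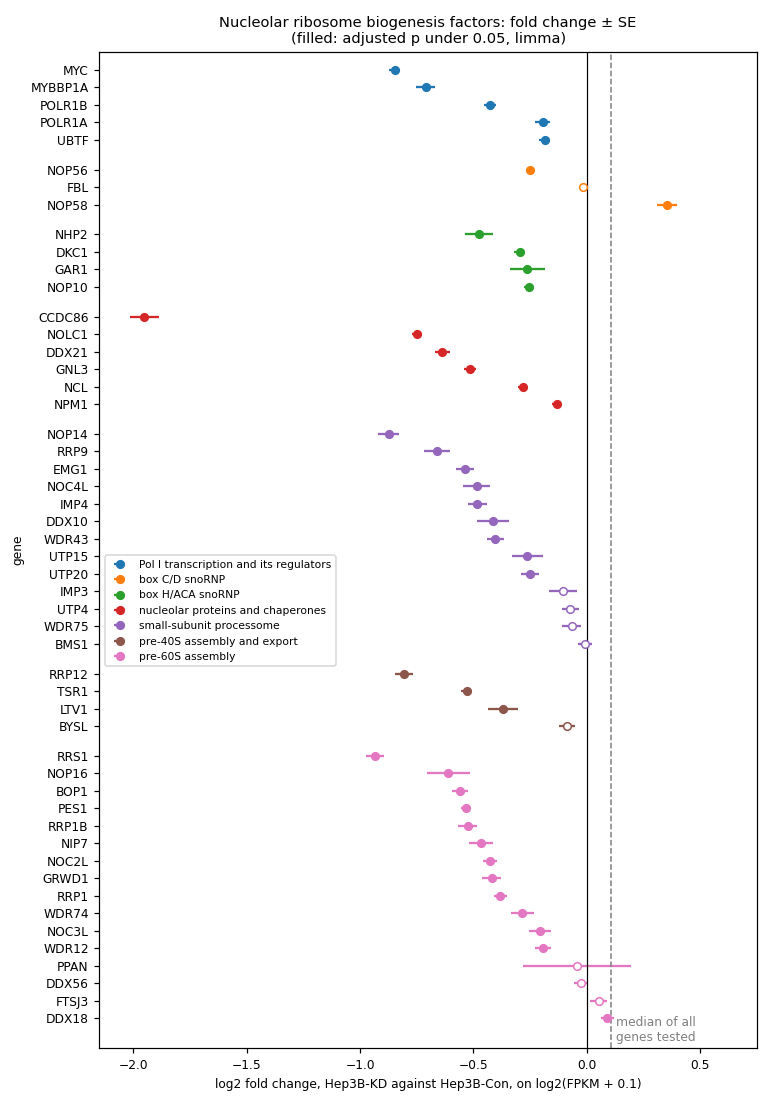
Log2 fold change of Hep3B-KD against Hep3B-Con on log2(FPKM + 0.1) for the 51 members tested, grouped by role, with bars of 1 SE over 3 libraries a group and filled points for an adjusted p under 0.05 (limma). CCDC86 at -1.95 lies apart from the rest, NOP58 at 0.35 is the highest, and the dashed line marks the median of all genes tested, 0.11.

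Transcription of rRNA was represented by 5 members, and all 5 fell, with a median log2 fold change of -0.43. MYC (chromosome 8, 127735434 to 127741434, plus strand, GRCh38) was at 96.2, 94.3 and 95.8 FPKM in Hep3B-Con and 51.4, 53.4 and 54.3 FPKM in Hep3B-KD. The groups lay far apart, with a spread of a few FPKM within each. MYC fell by 0.85 on the log2 scale (SE 0.0248, adjusted p = 9.55e-07, limma). MYBBP1A, a nucleolar protein that represses polymerase I and takes part in rRNA processing, fell by 0.71 on the log2 scale.

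Polymerase I itself moved less. POLR1B, the second-largest subunit, went from 19.0 ± 0.167 to 14.1 ± 0.176 FPKM (SD, n = 3), and POLR1A, the largest, from 19.4 ± 0.0900 to 17.0 ± 0.605 FPKM. The log2 fold changes were -0.43 for POLR1B and -0.19 for POLR1A, with adjusted p = 1.72e-05 and 0.00214 (limma). UBTF, which binds the rRNA gene promoter and opens it for polymerase I, fell by 0.19 on the log2 scale.

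Of the box C/D snoRNP core, 3 proteins are members, and they did not move together. These are NOP56 and NOP58, the paired scaffold proteins, and FBL (fibrillarin), the methyltransferase. SNU13, another box C/D protein that is not a member, fell by 0.56 on the log2 scale. NOP58 (chromosome 2, 202265716 to 202303666, plus strand) was at 28.2, 29.1 and 31.4 FPKM in Hep3B-Con and 39.0, 37.5 and 37.0 FPKM in Hep3B-KD. Every knockdown library was above every control library. NOP58 rose by 0.35 on the log2 scale (SE 0.0442, adjusted p = 4.76e-04, limma), the highest value of any member.

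NOP56 (chromosome 20, 2652145 to 2658393, plus strand) was at 55.4, 55.2 and 56.1 FPKM in Hep3B-Con and 46.4, 46.8 and 47.0 FPKM in Hep3B-KD. All 3 knockdown libraries were lower, by 0.25 on the log2 scale (adjusted p = 3.83e-05, limma). GENCODE names 3 NOP56 pseudogenes, of which 2 had a row, so reads of NOP56 may be shared with them. FBL was at 87.1, 89.7 and 90.4 FPKM in Hep3B-Con and 88.3, 88.1 and 88.0 FPKM in Hep3B-KD, with overlapping groups and a log2 fold change of -0.02 (SE 0.0197, adjusted p = 0.537, limma) that turned to 0.14 under quantile normalization.

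All 4 box H/ACA core proteins fell, with log2 fold changes from -0.48 to -0.25. DKC1 (dyskerin), the pseudouridine synthase, was at 37.6, 37.4 and 37.5 FPKM in Hep3B-Con and 31.3, 30.1 and 30.2 FPKM in Hep3B-KD. NHP2 was at 21.9, 21.4 and 21.7 FPKM in Hep3B-Con and 17.2, 14.7 and 14.9 FPKM in Hep3B-KD. Of the 4, NHP2 had the lowest log2 fold change, -0.48, but with a SE of 0.0609 against 0.0237 for DKC1 at -0.30. Exons of RMND5B cover 27.4% of the exon bases of NHP2. RMND5B had a log2 fold change of -0.15 and was not called. GENCODE names 2 NHP2 pseudogenes, of which 1 had a row.

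NOP10, the smallest subunit, was at 175, 177 and 176 FPKM in Hep3B-Con and 152, 146 and 146 FPKM in Hep3B-KD. GAR1 was at 13.7, 13.3 and 13.7 FPKM in Hep3B-Con and 12.5, 11.6 and 10.0 FPKM in Hep3B-KD. The groups of both genes stood apart, and the adjusted p was 5.65e-05 for NOP10 and 0.0254 for GAR1 (limma). The call of NOP10 was lost under quantile normalization, and that of GAR1 without any 1 of the Hep3B-Con libraries or without Hep3B-KD 2, where its log2 fold change was -0.28 to -0.25, and also with no filter, with an ordinary linear model per gene and with centring within bins of exon length, GC content and mean FPKM.

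All 6 members grouped as nucleolar proteins and chaperones fell, with a median log2 fold change of -0.58, or -0.51 for the 5 without CCDC86. CCDC86, a coiled-coil nucleolar protein (chromosome 11, 60842071 to 60851081, plus strand, GRCh38), was at 21.1, 20.8 and 21.0 FPKM in Hep3B-Con and 5.22, 4.95 and 5.93 FPKM in Hep3B-KD. The means were 20.98 and 5.37 FPKM, and the log2 fold change was -1.95 (SE 0.0659, adjusted p = 1.7e-06, limma). Because the study's pick of CCDC86 used these libraries among other data, its fall is not independent evidence.

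The other 5 fell by less. NOLC1, a chaperone of snoRNPs, was at 75.8, 74.3 and 74.3 FPKM in Hep3B-Con and 44.0, 45.4 and 43.8 FPKM in Hep3B-KD. It fell by 0.75 on the log2 scale (SE 0.0221, adjusted p = 9.83e-07, limma). DDX21, an RNA helicase, fell by 0.64, and GNL3 (nucleostemin), a GTP-binding protein of proliferating cells, fell by 0.51 on the log2 scale.

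The most abundant members changed least within this group. NCL (nucleolin), an RNA-binding protein of the nucleolus, was at 177, 184 and 180 FPKM in Hep3B-Con and 147, 148 and 150 FPKM in Hep3B-KD, a log2 fold change of -0.28 (adjusted p = 2.2e-05, limma). NPM1 (nucleophosmin), which organises the granular part of the nucleolus, was at 266, 267 and 270 FPKM in Hep3B-Con and 243, 251 and 239 FPKM in Hep3B-KD. NPM1 fell by 0.13 on the log2 scale (adjusted p = 0.00122, limma), and this direction turned to 0.04 under quantile normalization and to 0.0012 when genes were centred within those bins. GENCODE names 45 NPM1 pseudogenes, of which 11 had a row, so reads of NPM1 may be shared with them.

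**Figure D2:**
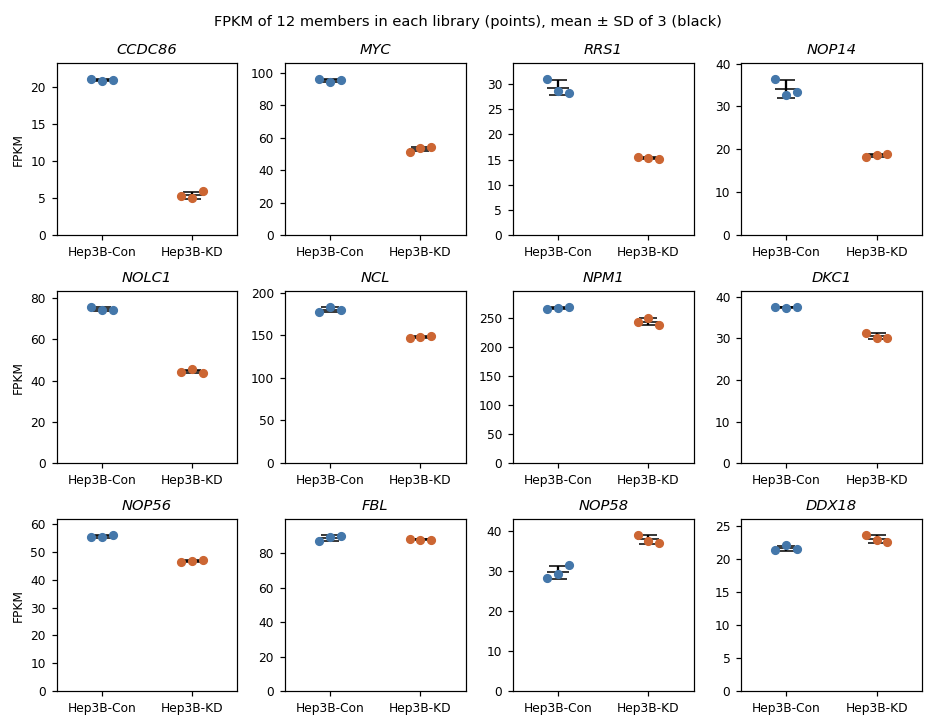
FPKM of 12 members in each of the 3 Hep3B-Con and 3 Hep3B-KD libraries (points, linear axis from 0), with the mean and SD in black. CCDC86, MYC, RRS1, NOP14 and NOLC1 show a wide gap, NCL, NPM1, DKC1 and NOP56 a narrow one, FBL overlaps between 87.1 and 90.4 FPKM, and NOP58 and DDX18 lie higher in Hep3B-KD.

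In the small-subunit processome, the large particle that folds and cuts the 5′ part of the precursor, 9 of 13 members fell, 0 rose and 4 were not called, with a median log2 fold change of -0.40. NOP14 (chromosome 4, 2937933 to 2963385, minus strand) was at 36.5, 32.6 and 33.3 FPKM in Hep3B-Con and 18.2, 18.6 and 18.8 FPKM in Hep3B-KD. It fell by 0.87 on the log2 scale (SE 0.0451, adjusted p = 8.65e-06, limma). Exons of the antisense gene NOP14-AS1 cover 17.1% of its exon bases, and the strand setting of the counting is not given in the sources used here. NOP14-AS1 itself was at 2.88 FPKM in Hep3B-Con and 2.68 FPKM in Hep3B-KD, with overlapping groups.

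The binding partners of NOP14 also fell. NOC4L went from 13.9 ± 0.815 to 9.86 ± 0.522 FPKM (SD, n = 3), and EMG1, an rRNA methyltransferase, from 10.2 ± 0.370 to 6.97 ± 0.101 FPKM. Their log2 fold changes were -0.49 and -0.54. Exons of other genes, LPCAT3 and C1S, cover 53.1% of the exon bases of EMG1, and both of those genes were higher in Hep3B-KD, by 0.37 and 1.25 on the log2 scale.

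RRP9, a protein of the U3 snoRNP that guides the early cuts, was at 29.4 ± 0.571 FPKM in Hep3B-Con and 18.6 ± 1.46 FPKM in Hep3B-KD (SD, n = 3), and its log2 fold change was -0.66. The other members that fell were IMP4 (-0.48), the helicase DDX10 (-0.41), WDR43 (-0.40), UTP15 (-0.26) and the scaffold UTP20 (-0.25). Those not called were IMP3 (-0.10), UTP4 (-0.07), WDR75 (-0.07) and the GTPase BMS1 (-0.01). GENCODE names 17 BMS1 pseudogenes, of which 16 had a row, so reads of BMS1 may be shared with them. WDR43, UTP15, UTP4 and WDR75 belong to 1 early-binding subcomplex. Among these members, 2 fell and 2 were not called. These counts cover the members only and do not describe the subcomplex as a whole.

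IMP3 and IMP4 bind the U3 snoRNP together, and their values differed in size. IMP3 was at 7.15 ± 0.181 FPKM in Hep3B-Con and 6.66 ± 0.491 FPKM in Hep3B-KD (SD, n = 3), where IMP4 was at 28.0 ± 0.830 and 20.04 ± 0.981 FPKM. The difference between these fold changes was not tested, and exons of other genes, among them SNX33, cover 59.3% of the exon bases of IMP3.

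Of the 4 members that finish and export the pre-40S particle, 3 fell. RRP12, an export factor, was at 10.9 ± 0.129 FPKM in Hep3B-Con and 6.20 ± 0.252 FPKM in Hep3B-KD (SD, n = 3) and fell by 0.81 on the log2 scale (SE 0.0415, adjusted p = 8.6e-06, limma). TSR1, which holds the particle in an inactive state, fell by 0.53, and LTV1, an assembly factor released late, fell by 0.37 on the log2 scale. Exons of other genes cover 20.8% of the exon bases of TSR1 and 34.8% of those of LTV1. BYSL (bystin) was at 33.3, 33.7 and 32.8 FPKM in Hep3B-Con and 32.8, 30.2 and 30.9 FPKM in Hep3B-KD, and was not called (log2 fold change -0.09, adjusted p = 0.0629, limma).

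In pre-60S assembly, 12 of the 16 members tested fell, 1 rose and 3 were not called, with a median log2 fold change of -0.40. RRS1, which brings the 5S ribonucleoprotein into the particle, was at 31.1, 28.7 and 28.2 FPKM in Hep3B-Con and 15.5, 15.3 and 15.05 FPKM in Hep3B-KD. Its groups did not overlap and the log2 fold change was -0.93 (SE 0.0416, adjusted p = 4.87e-06, limma), the second lowest of all members.

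PES1, BOP1 and WDR12 form the PeBoW complex, which is needed to process the large-subunit rRNA. PES1 went from 47.1 ± 0.617 to 32.5 ± 0.462 FPKM and BOP1 from 46.9 ± 1.20 to 31.8 ± 1.33 FPKM (SD, n = 3), with log2 fold changes of -0.53 and -0.56. WDR12 moved less, from 9.83 ± 0.289 to 8.58 ± 0.0800 FPKM, which is -0.19 on the log2 scale. All 3 passed the test.

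The other 8 members of this group that fell are assembly factors of the large subunit. NOP16 fell by 0.61, RRP1B by 0.52, NIP7 by 0.47, the histone-binding NOC2L by 0.43, GRWD1 by 0.42, RRP1 by 0.38, WDR74 by 0.28 and NOC3L by 0.21 on the log2 scale. RRP1 and RRP1B are related proteins encoded by separate genes, and their mean levels were 28.2 and 44.0 FPKM in Hep3B-Con.

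DDX18, an RNA helicase, was the second member called higher. It was at 21.3, 22.01 and 21.4 FPKM in Hep3B-Con and 23.6, 22.8 and 22.6 FPKM in Hep3B-KD, a log2 fold change of 0.09 (SE 0.0292, adjusted p = 0.0331, limma). This value lies below the median of all genes tested, 0.11, and centring the libraries on their median turned it to -0.01. The call of DDX18 was lost, leaving NOP58 as 1 member that rose, without Hep3B-Con 1, Hep3B-Con 3, Hep3B-KD 1 or Hep3B-KD 2, and with the replicate number as a block (adjusted p = 0.0789, limma). FTSJ3, an rRNA methyltransferase, had a log2 fold change of 0.05, and the helicase DDX56 of -0.03, and neither was called.

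PPAN and NOP2 could not be measured well. PPAN, a factor of large-subunit maturation, was at 1.30, 1.02 and 0.884 FPKM in Hep3B-Con and 0.732, 1.11 and 1.31 FPKM in Hep3B-KD, with a log2 fold change of -0.04 (SE 0.24, adjusted p = 0.889, limma) that turned to 0.17 without Hep3B-KD 1 and 0.09 without Hep3B-Con 1. Exons of the readthrough gene PPAN-P2RY11 and of P2RY11 cover 59.8% of its exon bases. NOP2, an rRNA methyltransferase, had 4 to 11 reads a library, which is 0.051 to 0.141 FPKM, and exons of another gene model cover 54.4% of its exon bases. A level this low of NOP2 is given as counted and not read as its expression.

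Proteins of 1 complex could be compared by the ratio of their FPKM in the same library. These 10 pairs were chosen after the values were seen, so the ratios are a description with no test. NOP58 to NOP56 was 0.509, 0.527 and 0.560 in Hep3B-Con and 0.839, 0.802 and 0.787 in Hep3B-KD. The ratio was higher in every knockdown library, with means of 0.532 ± 0.0257 and 0.810 ± 0.0267 (SD, n = 3). FBL to NOP56 went from 1.60 ± 0.0273 to 1.89 ± 0.0142, again with no overlap.

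WDR12 to PES1 went from 0.209 ± 0.00361 to 0.264 ± 0.00534, a log2 change of 0.34 that turned to -0.18 with centring within bins of exon length, GC content and mean FPKM, while BOP1 to PES1 overlapped at 0.998 ± 0.0290 and 0.980 ± 0.0470. POLR1B to POLR1A went from 0.978 ± 0.0127 to 0.831 ± 0.0306, and NOP14 to NOC4L from 2.47 ± 0.0823 to 1.89 ± 0.108. In the box H/ACA core, NHP2 to DKC1 went from 0.577 ± 0.00510 to 0.510 ± 0.0338, and GAR1 to DKC1 overlapped at 0.363 ± 0.00552 and 0.372 ± 0.0360. The NOP10 to DKC1 ratio was 4.69 ± 0.0383 and 4.83 ± 0.0106, and its log2 change turned from 0.04 to -0.20 with that centring.

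**Figure D3:**
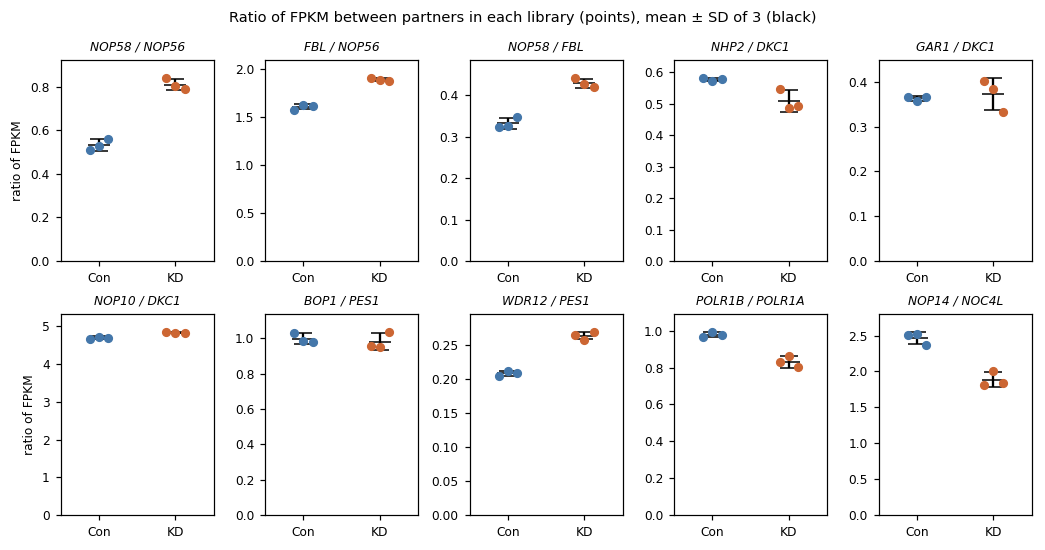
FPKM ratio of 10 pairs of members in each Hep3B-Con and Hep3B-KD library (points, linear axis from 0), with the mean and SD of 3 libraries in black. NOP58 to NOP56 rises from 0.532 to 0.810, POLR1B to POLR1A falls from 0.978 to 0.831, and GAR1 to DKC1 and BOP1 to PES1 overlap between the groups.

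Other genes of ribosome production were counted in lists drawn up by function, with earlier results of these data known, and 6 genes stand in more than 1 of these lists. Of 79 cytosolic ribosomal proteins, 66 fell and 0 rose, with a median log2 fold change of -0.30 that was -0.16 with centring within bins of exon length, GC content and mean FPKM and -0.17 under quantile normalization. RPS14 was an outlying value among them, with means of 57.2 and 11.9 FPKM, and fell by 2.26 on the log2 scale. RPS15 fell by 0.70 and RPL3 by 0.69.

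Of 53 other large-subunit factors tested, 29 fell and 4 rose, with a median of -0.21, and NOP53 (-1.25), MAK16 (-1.19) and SPATA5L1 (1.35) passed 2-fold. Of 47 other small-subunit factors, 25 fell and 8 rose, with a median of -0.17 (-0.27 with median centring or centring within the bins), among them RCL1 (-0.82), WDR46 (-0.76), UTP14A (-0.67) and, in the other direction, C1orf131 (0.78), KRR1 (0.58) and MPHOSPH10 (0.55). MPHOSPH10 is the binding partner of IMP3 and IMP4. Centring within the bins turned KRR1 to -0.02.

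Of 20 other genes of polymerase I and its initiation, 8 fell and 6 rose, with a median of -0.02 that was -0.18 under quantile normalization, -0.16 with centring within the bins, -0.12 with median centring and 0.0043 when the libraries were rescaled to the same FPKM sum. CAVIN1, which releases polymerase I transcripts and also coats caveolae, fell by 0.94, TAF1A by 0.53 and the subunit POLR1C by 0.43, while TAF1D, TAF1C and TTF1 had log2 fold changes of 0.29, 0.26 and 0.23, with TAF1D at -0.14 after centring within the bins. The members MYC, POLR1A, POLR1B, UBTF and MYBBP1A are not in that list.

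Of 23 genes of snoRNP assembly and RNA modification, 10 fell, among them TCOF1 (-0.69) and the box C/D protein SNU13 (-0.56), and 7 rose, among them RPAP3 (0.74) and PHAX (0.59). Of 29 RNA exosome and pre-rRNA nuclease genes, 11 fell and 4 rose, with ISG20L2 at -1.04 and DIS3 at 0.57, where centring within the bins gave 0.0137 for DIS3. Of 19 snoRNA host transcripts without a protein product, 11 fell, among them SNHG17 (-0.59) and SNHG3 (-0.53), and 1 rose. The median log2 fold changes were -0.14 for snoRNP assembly, -0.05 for the exosome and nuclease genes and -0.31 for the hosts. Over all genes tested the median was 0.11, with 24.0% lower and 36.3% higher.

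MYC was also set beside the other genes of its network, among them proteins that bind MAX or compete with MYC. Of 12 tested, 2 fell and 5 rose, with a median of 0.03 that turned to -0.14 under quantile normalization, and 4 rather than 7 were called without Hep3B-Con 3 or without Hep3B-KD 1. These shares are near the 24.0% lower and 36.3% higher of all genes tested. MLX fell by 0.52 on the log2 scale, and MLXIPL and MXD1 had log2 fold changes of 0.48 and 0.46. MNT (-0.21) lost its call in 10 of 19 refits and MXI1 (0.58) in 7 of 19.

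**Figure D4:**
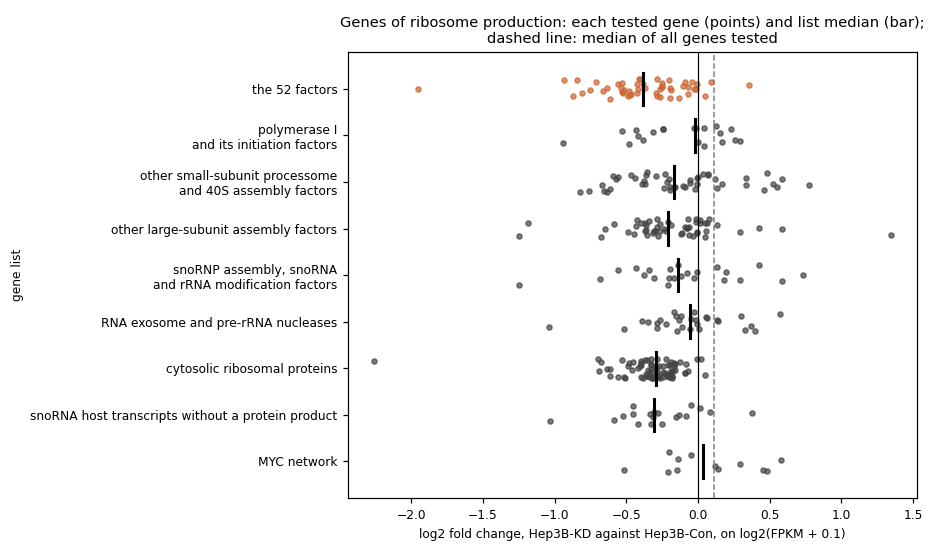
Log2 fold change of Hep3B-KD against Hep3B-Con for the members and the other lists of ribosome production, one point a gene, with the median of each list marked. The members' median is -0.38, that of the cytosolic ribosomal proteins -0.30 and that of the polymerase I list -0.02, where all genes tested have a median of 0.11.

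The promoters of the members were read for the canonical E-box, CACGTG, the letters that MYC with its partner MAX is known to bind. The motif is its own reverse complement, so both strands are covered, and the window ran from 250 bases before to 50 bases after the RefSeq start (GRCh38.p14). Of the 43 members tested that had a promoter in that table, 14 (32.6%) held the motif, where 981 of 9354 (10.5%) genes tested and 2030 of 27305 (7.43%) of all promoters did. No promoter was available for 8 members, MYC, RRS1, RRP12, NOLC1, BOP1, RRP1B, NOP58 and DDX18. They include the 2 members called higher and several with the lowest values, so the medians here leave out genes at both ends. The median log2 fold change was -0.39 for the 14 members with the motif and -0.28 for those without. Over all genes tested the medians were 0.07 with the motif and 0.09 without. The part of the motif in these values was not tested.

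The same share was 38.5% for the other small-subunit factors, 32.6% for the other large-subunit factors, 27.3% for the MYC network, 7.14% for the snoRNA hosts and 4.76% for the cytosolic ribosomal proteins. It was 3 of 25 for the exosome and nuclease genes, 0 of 14 for the polymerase I list and 0 of 17 for the snoRNP assembly list. A match is a description of these letters, and binding was not measured. Windows of 30 bases around the matches that lie before the RefSeq start are shown for 5 members that differ in their change, CCDC86 at -1.95, IMP4 at -0.48, NOP10 and UTP20 at -0.25 and UTP4 at -0.07, with the E-box in capitals.
CCDC86 (chr11:60842076-60842105, plus strand): cggcgggggctgCACGTGcgcaggggtgtg
IMP4 (chr2:130342682-130342711, plus strand): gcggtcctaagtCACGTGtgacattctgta
NOP10, distal (chr15:34343289-34343318, minus strand): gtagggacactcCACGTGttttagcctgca
NOP10, proximal (chr15:34343137-34343166, minus strand): caggaaggaaattgacgaaCACGTGacgcg
UTP20 (chr12:101280075-101280104, plus strand): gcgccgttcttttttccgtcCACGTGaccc
UTP4 (chr16:69132619-69132648, plus strand): tgagagcgcgcgcgCACGTGgggccggggc

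The match starts 25 bases before the start in CCDC86, 16 in UTP4, 10 in UTP20 and 203 in IMP4, and 170 and 11 bases before it in NOP10. GENCODE places the start of CCDC86, IMP4 and UTP4, and of NOP10 for its proximal window, upstream of the window shown. UTP4, which was not called, and CCDC86, the member with the lowest value, both held the motif within the window around the RefSeq start.

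The hairpin itself was compared with the members' transcripts. Its target, as listed by the study, matches the coding part of exon 18 of 20 of DAGLA (chr11:61740504-61740522, plus strand, GRCh38), and the stretch that pairs with bases 2 to 8 of the guide strand, the seed, is in capitals.
shDAGLA target: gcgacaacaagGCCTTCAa

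That stretch, GCCTTCA, was searched in the sense direction in 3′ UTRs, using for each gene its longest one in GENCODE if that has 50 bases or more. Of 50 members with such a UTR, 8 (16.0%) held it, where 1628 of 11188 (14.6%) genes tested did. The 8 were CCDC86, RRS1, NOP14, NOLC1, EMG1, NOC2L, POLR1A and UBTF. Their median log2 fold change was -0.64, against -0.29 for the members without it, and over all genes the medians were -0.04 with the match and 0.11 without. The part of the match in these values was not tested.

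The sites of RRS1 (-0.93), NOC2L (-0.43) and POLR1A (-0.19) are not shown. Sites of 27 bases, with the match in capitals, are shown for CCDC86, NOP14, NOLC1 and EMG1, which fell by 0.54 to 1.95 on the log2 scale, and for UBTF, which fell by 0.19.
CCDC86: ttctccaagtGCCTTCAaaccaagaac
NOP14: acggacgtttGCCTTCAtgtgtagaat
NOLC1: tgtgccccaaGCCTTCAtggacgagtt
EMG1, first site: tcacaagcagGCCTTCActtgccttaa
UBTF: gagggtcggtGCCTTCAagaaaacagg

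The sites start at base 267 of 756 in the UTR of CCDC86, 837 of 898 in NOP14, 1395 of 1602 in NOLC1, 1546 of 4132 in EMG1 and 488 of 2209 in UBTF. Without the 8 members that hold the match, 32 of 43 members fell, 2 rose, and the median log2 fold change was -0.30. Of the 7 members with the lowest values, CCDC86, RRS1, NOP14 and NOLC1 hold it and MYC, RRP12 and MYBBP1A do not.

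Reads shared with overlapping genes were handled the same way. Of the 38 members tested that have at most 10% of their exon bases under exons of another gene, 30 fell and 2 rose, with a median log2 fold change of -0.29. CCDC86 is not among them, since exons of PTGDR2 and antisense genes cover 17.2% of its exon bases, and PTGDR2 was at 0.508 and 0.749 FPKM.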

How the data were processed

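RNA from Hep3B-Con and Hep3B-KD cells was sequenced in 3 libraries each, with samples assigned from their titles. Per the labels, Bowtie2 2.0.6, TopHat2 2.0.12 and GRCh37 were used, with no role given. The authors deposited FPKM values for 29908 Ensembl genes, 1 column a library, with 0 other columns. Each FPKM value, multiplied by the gene's exon length in GENCODE release 29 (GRCh38) and the library total, gave a whole read within 0.01 (100% of values), so whichever genome was aligned to, the lengths match that release, and coordinates here are from it. Totals of 15861039 to 17572714 reads set a precision that covers counting error only.

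Of rows with a repeated symbol (382) the one with the highest mean was kept. Genes whose mean FPKM reached 0.5 were tested as log2(FPKM + 0.1) with limma 3.58.1 (lmFit, eBayes with a trend) in R 4.3.3, Benjamini-Hochberg adjusted over 14147 genes. A fold change is on that scale and understates low genes. The fit was also run on simulated data with few changed genes and no overall shift. That setting is unlike these data, so nothing is concluded from it. Of 368 list genes 361 matched. Sequences came from RefSeq (GRCh38.p14, promoters for 44 of 52 members), GENCODE and the study's hairpin table, and protein sequences were not used here. Python 3.11.15 handled tables.

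The members and lists were chosen with earlier results of these data known. All members could be named, and from each other list the genes past 2-fold and the 3 largest rises and falls among called genes. P2RY11, PTGDR2, SNX33, LPCAT3, C1S, RMND5B and NOP14-AS1 were named because their exons overlap members, and ALB because it is a defining marker. Other settings tried were a minimum mean of 1 FPKM or none, a pseudocount of 1 or 0.01, 3 other scalings, other variance models, voom on the recovered reads, the replicate number as a block, repeated symbols kept and each library left out.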

Additional observations from a re-analysis of the deposited data

How the results depend on the processing

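The count of members that fell ranged from 39 to 42 in every refit but centring on the median log ratio, which gave 47. Of the 42 members called, 38 kept their call and direction in all 19 refits. The exceptions were DDX18, GAR1, NOP10 and NPM1. Centring within bins of exon length, GC content and mean FPKM, the subset with little exon overlap and the subset without the seed match were chosen after the data had been seen. With 3 libraries a group, the spread of each gene rests on few values, and the depth of 4 to 11 reads for NOP2 and as few as 30 for PPAN limits what can be said of them. The cause of the changes below was not tested.

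The count of members that rose, 2, was 1 with eBayes without the trend, with median centring, with no filter and with the replicate block, 5 under quantile normalization and with centring within bins, and 1 to 2 when each library was left out. The count of members that fell past 2-fold, 1, was 2 with median centring and 0 in both subsets of members, which do not hold CCDC86. The members' median, -0.38, was -0.34 with centring within bins, -0.48 with median centring, -0.33 with a pseudocount of 1, -0.35 under quantile normalization, -0.35 with rescaling to the same FPKM sum, -0.29 for members with little exon overlap, -0.30 without the seed match and -0.41 to -0.36 when each library was left out. The MYC network had 4 genes called with no filter and with an ordinary linear model per gene, and 4 to 7 when each library was left out.

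Among the list medians that moved by over 1.5 times were the following. With centring within bins they were -0.16 for the polymerase I list, -0.27 for the other small-subunit factors, -0.14 for the exosome and nuclease genes and -0.16 for the cytosolic ribosomal proteins. With median centring they were -0.12, -0.27 and -0.16 for the first 3 of these and -0.24 for snoRNP assembly, and under quantile normalization -0.18, -0.19 and -0.17 for the polymerase I, exosome and ribosomal protein lists. Without Hep3B-Con 1 or Hep3B-KD 3 the polymerase I median was -0.07 in both fits and the exosome median -0.11 and -0.09. Without Hep3B-KD 2 these medians were -0.0077 and -0.09. The polymerase I median was also -0.0002 without Hep3B-Con 3 and -0.035 without Hep3B-KD 1. The exosome median was -0.083 with a mean of at least 1 FPKM and -0.026 with rescaling.

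These values changed sign. With centring within bins, FBL was 0.21, NPM1 0.0012, BYSL 0.13, DDX18 -0.15, DDX56 0.19, TAF1D -0.14, KRR1 -0.018, the median of all genes -0.00 and that of the MYC network -0.027, and the log2 ratio changes were -0.10 for GAR1 to DKC1, -0.20 for NOP10 to DKC1, 0.0125 for BOP1 to PES1 and -0.18 for WDR12 to PES1. With median centring, DDX18 was -0.0129, FTSJ3 -0.051 and the median of the MYC network -0.0696, and that median was -0.050 with a mean of at least 1 FPKM and with no filter. Under quantile normalization, FBL was 0.14, NPM1 0.039, DDX56 0.092, the MYC network median -0.14 and GAR1 to DKC1 -0.077. With rescaling, FBL was 0.012, BMS1 0.019, DDX56 0.0018 and the polymerase I list median 0.0043. When each library was left out, PPAN ranged from -0.21 to 0.17 (above 0 without Hep3B-Con 1 or Hep3B-KD 1), BMS1 from -0.0186 to 0.0093 (above 0 without Hep3B-KD 3), the MYC network median from -0.022 (without Hep3B-Con 1) to 0.054 and GAR1 to DKC1 from -0.022 (without Hep3B-KD 1) to 0.11. The median of all genes, 0.11, was 0.0055 with median centring, 0.01 under quantile normalization and 0.14 with rescaling.

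Samples with the same replicate number did not deviate together, with correlations of -0.00797, -0.0645 and -0.000907, so the numbers were not taken to pair the samples. With the replicate number as a block, 40 members fell and 1 rose.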
